A study of Caenorhabditis elegans with 6 samples.

Results

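The 10 genes described here, of sulfur amino acid and hydrogen sulfide metabolism, were followed in Caenorhabditis elegans in which the gene T25B9.1 had been knocked down by RNA interference (RNAi). They were taken by name as the rows of the counts table for cth-1, cth-2, cbs-1, cbs-2, cysl-1, cysl-2, cysl-3, sqrd-1, ethe-1 and cdo-1. These are 10 of the 46748 genes in the table, and 9 of the 10 held enough counts to be among the 13374 genes tested, with cbs-2 left out as too low. RNA came from whole N2 worms, the wild-type strain, all hermaphrodites at an age of 2 days, counted after the last larval stage according to the series title. One group of 3 libraries was made from worms under T25B9.1 RNAi, and the other group of 3 from worms given L4440, the empty RNAi vector. RNAi lowers a transcript without removing the gene, and T25B9.1 corresponds to mammalian glycine C-acetyltransferase, which makes glycine from a breakdown product of threonine.

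In the transsulfuration pathway, cystathionine beta-synthase joins homocysteine, left over from methionine, to serine. Cystathionine gamma-lyase then splits the product and releases cysteine, the source of glutathione and taurine. Both enzymes can also release hydrogen sulfide, a gas that signals at low levels and poisons mitochondrial respiration at high levels. Worms break sulfide down in mitochondria, and excess sulfide activates the hypoxia factor HIF-1. Glycine is linked to this pathway through serine, since the 2 amino acids are interconverted.

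T25B9.1 itself had 36, 49 and 73 counts in T25B9.1 RNAi replicates 1, 2 and 3, against 166, 154 and 185 counts in the L4440 libraries. Its log2 fold change was -1.84 (SE 0.184; edgeR's quasi-likelihood test, adjusted p = 0.0525), and the groups did not overlap. The adjusted p was 1.28e-11 with DESeq2, 9.38e-11 with edgeR's likelihood ratio test and 1.95e-07 with the quasi-likelihood test without a low-count filter. With the quasi-likelihood test it was 0.0346 with RLE factors and 0.0244 with a correction for exonic length. Over the other alternatives it ran from 0.0564 with a stricter filter to 0.307 without L4440 replicate 1. The libraries held 26125982 to 40726259 counts, with T25B9.1 RNAi replicate 3 the deepest. L4440 replicate 2 lay at 29.3 on the first principal component (46.9% of the variance). T25B9.1 RNAi replicate 1 stood apart on the other side, at -42.8 against -5.14 to 8.73 for the remaining libraries. The same library held more transcripts of 10 pharynx markers, at a summed 216 CPM (the count divided by the library's TMM-scaled total in units of 1e+06 counts), against 88.9 and 87.6 CPM in the other T25B9.1 RNAi libraries and 65.2 to 90.2 CPM in the L4440 libraries. For 10 moulting and hypodermis markers the sums were 533 CPM in that library, 272 and 258 CPM in the other T25B9.1 RNAi libraries, and 181 to 270 CPM with L4440. Of the pharynx list 8 of 9 tested genes had a log2 fold change above 0 (median 1.005, 5 at an unadjusted p under 0.05 in edgeR), and of the moulting and hypodermis list 9 of 10 (median 0.50, 3 at such a p). Body wall muscle markers (8 genes) summed to 2167 CPM in T25B9.1 RNAi replicate 1, 1168 and 1551 CPM in the other T25B9.1 RNAi libraries, and 1291 to 1753 CPM with L4440. Neuron markers (10 genes) summed to 323 CPM in that library, 276 and 286 CPM in the other T25B9.1 RNAi libraries, and 282 to 319 CPM with L4440. Log2 fold changes were above 0 for 6 of 8 body wall muscle genes (median 0.16) and 9 of 10 neuron genes (median 0.19). At an unadjusted p under 0.05 in edgeR were 1 higher and 1 lower neuron gene and no body wall muscle gene. The median log2 deviation of the neuron genes from their L4440 mean was 0.50, -0.064 and 0.053 in T25B9.1 RNAi replicates 1, 2 and 3. None of these markers was at 0 in all libraries, and their part in the results on the members was not tested. Germline and oocyte markers lay between 10531 and 10786 CPM with T25B9.1 RNAi and between 10197 and 10859 CPM with L4440 (8 genes). Intestine markers summed to 70615 to 82256 CPM with T25B9.1 RNAi and 54529 to 85051 CPM with L4440 (9 genes), and 8 sperm markers to 0.795 to 1.39 CPM with T25B9.1 RNAi and 0.713 to 1.37 CPM with L4440. Above 0 were 6 of 8 germline and oocyte genes (median 0.022) and 7 of 9 intestine genes (median 0.13), beside 50.6% of all genes tested. In these lists 1 intestine gene, a higher one, and no germline or oocyte gene had an unadjusted p under 0.05 in edgeR. In whole worms, fewer cells of a type and less RNA per cell cannot be told apart. Whether the libraries of a group came from separate cultures is not stated in the labels, and the p-values reflect the spread among these libraries alone, which may be technical.

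Of the members, cth-1 stood out as higher under T25B9.1 RNAi and cysl-2 as the largest fitted difference in the other direction. None of the 9 tested members passed an adjusted p under 0.05 in edgeR's quasi-likelihood test, which called 0 of all 13374 genes (0%). At an unadjusted p under 0.05 there were 2 members, cth-1 and cysl-2, where 826 of all genes (6.18%) did so. DESeq2, the alternative model, called cth-1 alone among the members, against 14 genes or 0.104% of all those it adjusted. One member, cth-1, had groups that did not overlap, in the higher direction, as did 5.53% of all genes tested. No member had 3 T25B9.1 RNAi libraries below all 3 L4440 libraries among the 9 tested, where 5.32% of all genes did. Of the 9 log2 fold changes 4 were above 0 and the median was -0.091, beside 50.6% above 0 and a median of 0.0024 over all genes tested.

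**Figure D1:**
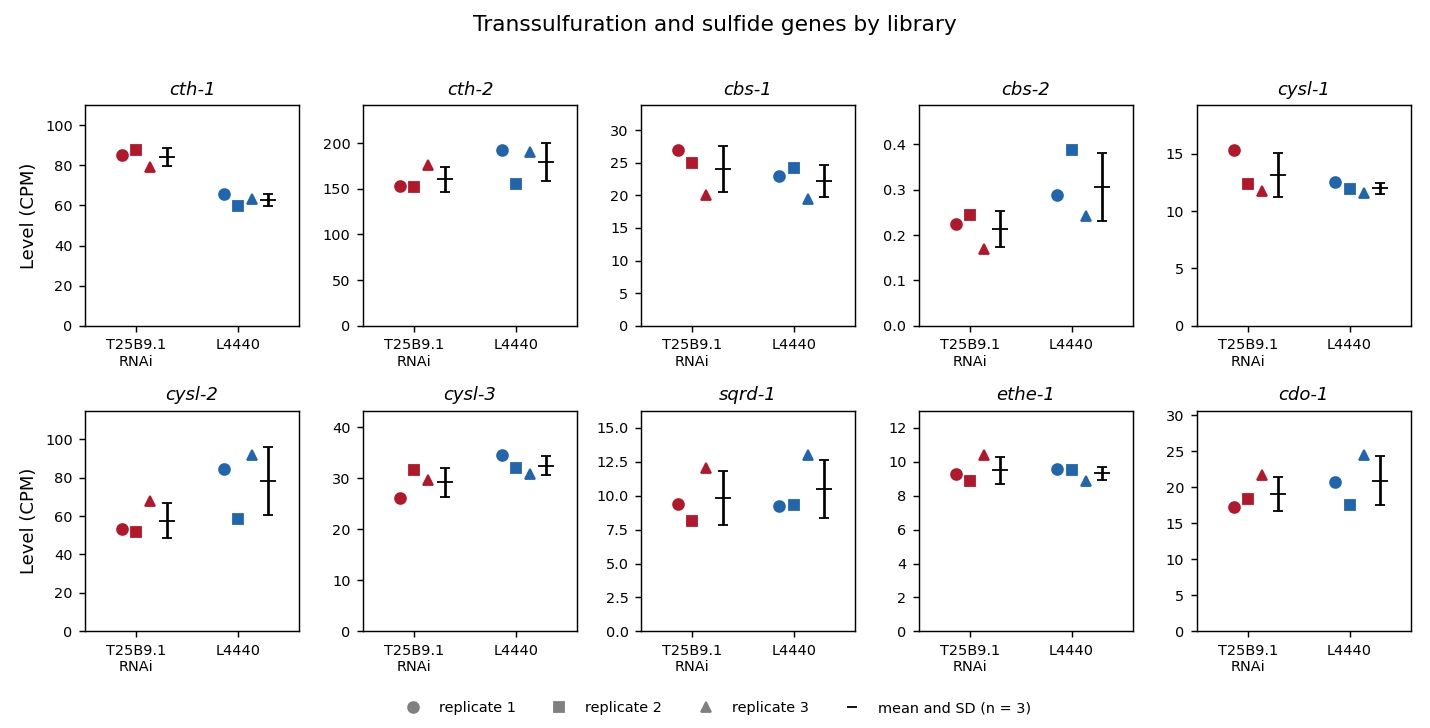
Level of each member in CPM (y axis, from 0) in the 3 T25B9.1 RNAi libraries (red, left) and the 3 L4440 libraries (blue, right), with replicates by symbol and the mean and SD in black. The cth-1 points of the 2 groups are apart, at 79.2 to 87.9 CPM with T25B9.1 RNAi and 59.7 to 65.7 CPM with L4440, while the other 9 members overlap.

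The gene cth-1 encodes a cystathionine gamma-lyase, the enzyme that ends transsulfuration. It lies on the plus strand of chromosome V from 16100680 to 16102750 in build WBcel235. It has 1296 exonic bases in 3 exon blocks, merged over its annotated transcripts. It had 2266, 2516 and 3288 counts in T25B9.1 RNAi replicates 1, 2 and 3, and 1820, 1843 and 1833 counts in L4440 replicates 1, 2 and 3. Scaled for depth these were 85.2, 87.9 and 79.2 CPM with T25B9.1 RNAi, against 65.7, 59.7 and 63.3 CPM with L4440. Each T25B9.1 RNAi library was above each L4440 library, and the means were 84.1 ± 4.45 CPM and 62.9 ± 3.00 CPM (SD, n = 3 each). The fold change was 1.34 (95% interval 1.20 to 1.49), a log2 fold change of 0.42 (SE 0.069). By p-value it ranked 6 of 13374 genes (edgeR, unadjusted p = 0.000193), and its adjusted p was 0.429. The adjusted p was below the threshold with DESeq2 (0.0177), edgeR's likelihood ratio test (0.00232) and edgeR's quasi-likelihood test without a filter on low counts (0.0158). These settings called 14, 12 and 139 genes in all, in place of 0. T25B9.1 RNAi replicate 1, the library that stood apart, lay between the other 2 of its group for cth-1, and the log2 fold change was 0.41 without it.

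The second cystathionine gamma-lyase gene, cth-2, did not follow cth-1. It lies on the minus strand of chromosome II from 7056184 to 7057960. The T25B9.1 RNAi libraries had 153, 152 and 176 CPM and the L4440 libraries 193, 155 and 190 CPM, so that the groups overlapped through T25B9.1 RNAi replicate 3 and L4440 replicate 2. Its exons share 8 bases with ZK1127.3 on the other strand, a gene at 64.5 ± 5.66 CPM with T25B9.1 RNAi and 68.3 ± 2.26 CPM with L4440 (SD, n = 3 each). The log2 fold change was -0.16 with a 95% interval of -0.39 to 0.067 (adjusted p = 0.717, edgeR). It was -0.25 without L4440 replicate 2 (unadjusted p = 0.0206) and -0.10 without L4440 replicate 1. Per exonic length, cth-1 stood at 0.570, 0.591 and 0.461 of the cth-2 level in the T25B9.1 RNAi libraries, and at 0.348, 0.394 and 0.341 of it in the L4440 libraries. This ratio is taken within a library, so the scaling between libraries does not enter it. Since cth-1 was known to be high when the ratio was formed, it is a description with no test. Together the pair summed to 186 ± 6.96 CPM per kb with T25B9.1 RNAi and 184 ± 18.0 CPM per kb with L4440 (SD, n = 3 each), a difference smaller than either SD. By the ratio above, the share of cth-1 in that sum was larger with T25B9.1 RNAi. With this spread and 3 libraries per group, the values cannot show that the sum stayed the same.

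The gene argk-1, for an arginine kinase that buffers ATP, follows cth-1 on the same strand after a gap of 1143 bases. It had 49.4, 43.9 and 38.4 CPM with T25B9.1 RNAi, against 23.2, 22.7 and 28.2 CPM with L4440, a log2 fold change of 0.83 (SE 0.118, adjusted p = 0.224 in edgeR's quasi-likelihood test and 7.90e-07 in DESeq2). On the other side, 1138 bases away on the opposite strand, the receptor gene str-7 had 3.05, 4.02 and 4.60 CPM with T25B9.1 RNAi and 2.85, 2.01 and 3.66 CPM with L4440, and its groups overlapped. No exon of another annotated gene overlaps those of cth-1.

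**Figure D2:**
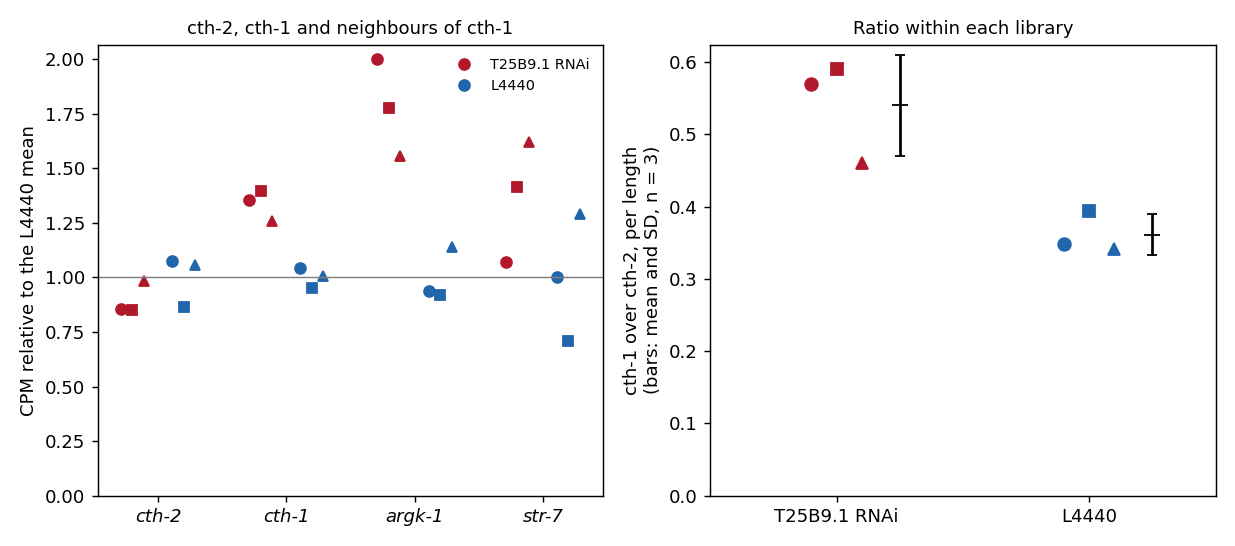
Left, CPM of cth-2, cth-1 and the genes on either side of cth-1, each divided by its own L4440 mean (y axis, from 0), with T25B9.1 RNAi libraries in red on the left of each pair, L4440 libraries in blue, and circle, square and triangle for replicates 1, 2 and 3. Right, the ratio of cth-1 to cth-2 per exonic length in each library with its mean and SD, which was 0.461 to 0.591 with T25B9.1 RNAi and 0.341 to 0.394 with L4440.

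The cystathionine beta-synthase genes act 1 step before the lyases. The gene cbs-1 on chromosome X had 27.03, 24.9 and 20.1 CPM with T25B9.1 RNAi and 22.9, 24.2 and 19.4 CPM with L4440. The groups overlapped, and the log2 fold change was 0.11 with a 95% interval of -0.18 to 0.40 (adjusted p = 0.814, edgeR). Leaving out T25B9.1 RNAi replicate 1 gave 0.015, leaving out L4440 replicate 3 gave 0.023, and leaving out T25B9.1 RNAi replicate 3 gave 0.23. Its partner cbs-2 on chromosome II was barely present, with 6, 7 and 7 counts in the T25B9.1 RNAi libraries and 8, 12 and 7 counts in the L4440 libraries. At such counts the counting error alone is 28.9% to 40.8% of a library's value, so a difference of the size seen for cth-1 was not detectable in cbs-2 at this depth. DESeq2 gave cbs-2 an unadjusted p = 0.454.

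The cysteine synthase-like genes belong to the same enzyme superfamily as the beta-synthases. CYSL-1 is known as a sulfide sensor that binds the HIF-1 regulator EGL-9 when sulfide is high, and CYSL-2 detoxifies cyanide and is a target of HIF-1. The gene cysl-2, on the minus strand of chromosome II from 14492874 to 14494451, had 53.2, 51.9 and 67.9 CPM with T25B9.1 RNAi, against 84.7, 58.3 and 91.6 CPM with L4440. The 2 highest values were L4440 replicates 1 and 3, while L4440 replicate 2 lay below T25B9.1 RNAi replicate 3, so the groups overlapped. The means were 57.7 ± 8.91 CPM and 78.2 ± 17.6 CPM (SD, n = 3 each), a fold change of 0.739 (95% interval 0.568 to 0.960) and a log2 fold change of -0.44 (SE 0.167). In edgeR's quasi-likelihood test it had an unadjusted p = 0.0282 and an adjusted p = 0.717, and an adjusted p = 0.0368 without the filter on low counts. That setting called 139 genes in place of 0. With 1 library left out the log2 fold change ran from -0.60 without L4440 replicate 2 to -0.31 without L4440 replicate 3. The exons of cysl-2 share 36 bases with vnut-1 on the opposite strand, and the library kit does not mark strand, so a few of its reads could be counted to either gene or to none. The gene vnut-1, a vesicular transporter gene, stood at 45.7 ± 1.10 CPM with T25B9.1 RNAi and 50.2 ± 1.26 CPM with L4440 (SD, n = 3 each).

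The sensor gene cysl-1 on chromosome X had 15.4, 12.4 and 11.8 CPM with T25B9.1 RNAi and 12.5, 11.9 and 11.6 CPM with L4440. T25B9.1 RNAi replicate 1 was above the other 5 libraries, which lay within 1 CPM of each other, and without it the log2 fold change of 0.13 became 0.0053. The interval with all libraries was -0.15 to 0.41 (adjusted p = 0.775, edgeR). The gene cysl-3 on chromosome V had 26.2, 31.7 and 29.7 CPM with T25B9.1 RNAi and 34.6, 32.01 and 30.9 CPM with L4440, with a log2 fold change of -0.15 and a 95% interval of -0.36 to 0.057 (adjusted p = 0.717, edgeR). T25B9.1 RNAi replicate 1 was its lowest library, and the log2 fold change was -0.085 without it. Of its exonic bases, 74 are shared with the methyltransferase-like gene rips-1 on the opposite strand. That gene had 23.6, 24.7 and 26.8 CPM with T25B9.1 RNAi, against 39.9, 33.0 and 37.5 CPM with L4440 (adjusted p = 0.440 in edgeR's quasi-likelihood test and 0.0012 in DESeq2), and any part of it in the cysl-3 counts was not tested. The 3 cysl genes together summed to 89.1 ± 7.39 CPM per kb with T25B9.1 RNAi and 109 ± 15.9 CPM per kb with L4440 (SD, n = 3 each), with cysl-2 the largest part of the sum in each library.

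**Figure D3:**
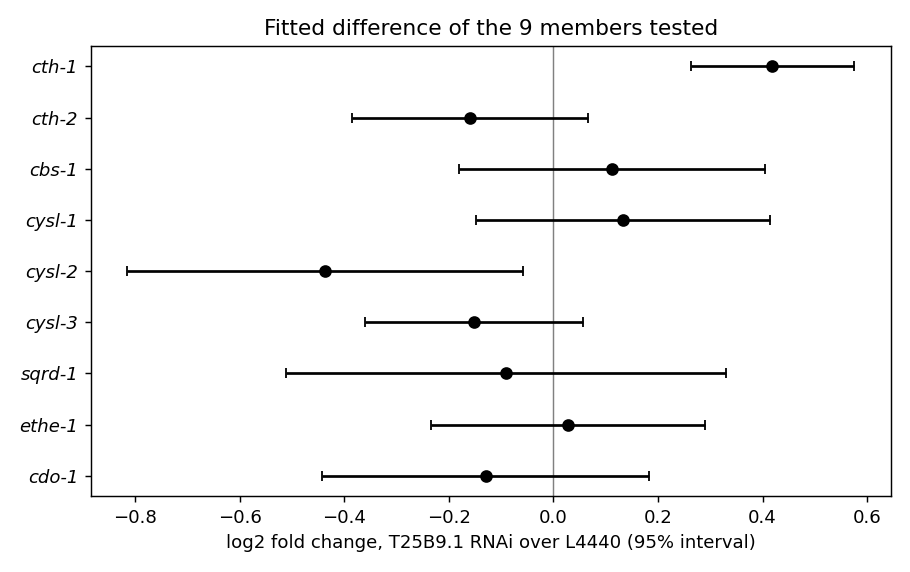
Fitted log2 fold change of T25B9.1 RNAi over L4440 (x axis) for the 9 members tested, with bars for the 95% interval of edgeR's quasi-likelihood fit. The intervals of cth-1 (0.26 to 0.58) and cysl-2 (-0.82 to -0.059) lie to 1 side of 0 and the other 7 hold 0.

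The oxidation genes gave no difference beyond the spread between libraries. The gene sqrd-1 on chromosome IV encodes sulfide:quinone oxidoreductase, the mitochondrial enzyme that takes up sulfide first. It had 9.40, 8.11 and 12.0 CPM with T25B9.1 RNAi and 9.24, 9.33 and 13.0 CPM with L4440. In each group replicate 3 was the highest, and the log2 fold change was -0.091 with an interval of -0.51 to 0.33 (adjusted p = 0.902, edgeR). The gene ethe-1, also on chromosome IV, is the counterpart of the human persulfide dioxygenase, which acts after it. It had 9.25, 8.84 and 10.4 CPM with T25B9.1 RNAi and 9.60, 9.49 and 8.87 CPM with L4440, a log2 fold change of 0.028 with an interval of -0.23 to 0.29 (adjusted p = 0.955, edgeR). For both genes the sign turned when 1 library was left out, as for sqrd-1 at 0.087 and ethe-1 at -0.0077 without L4440 replicate 3. A change of up to 1.26-fold higher or to 0.701-fold lies inside the interval of sqrd-1, and of 1.22-fold or 0.850-fold inside that of ethe-1.

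The gene cdo-1 on chromosome X encodes cysteine dioxygenase, which opens the other route of cysteine breakdown, towards sulfite and taurine. It had 17.2, 18.3 and 21.7 CPM with T25B9.1 RNAi and 20.8, 17.6 and 24.4 CPM with L4440. The groups overlapped, with a log2 fold change of -0.13 and an interval of -0.44 to 0.18 (adjusted p = 0.799, edgeR). Leaving out 1 library gave values from -0.24, without T25B9.1 RNAi replicate 3 or L4440 replicate 2, to -0.0040 without L4440 replicate 3. Its exons share 127 bases with those of F56F10.2, a low gene of the other strand at 1.45 ± 0.0531 CPM with T25B9.1 RNAi and 1.51 ± 0.517 CPM with L4440 (SD, n = 3 each).

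Libraries of the same group differed more for some members than for others. The coefficient of variation between libraries was 5.29% with T25B9.1 RNAi and 4.77% with L4440 for cth-1, and 20.3% in each group for sqrd-1. For cysl-2 it was 15.5% with T25B9.1 RNAi and 22.5% with L4440, while the counting error of its libraries was 1.88% to 2.66%. T25B9.1 RNAi replicate 3 was the highest of its group for 5 of the 9 tested members, cth-2, cysl-2, sqrd-1, ethe-1 and cdo-1, and the lowest for cth-1, cbs-1 and cysl-1. L4440 replicate 2 was the lowest of its group for cth-1, cth-2, cysl-2 and cdo-1, and L4440 replicate 3 for cbs-1, cysl-1, cysl-3 and ethe-1. L4440 replicate 1 was the highest of its group for 5 members, cth-1, cth-2, cysl-1, cysl-3 and ethe-1. Levels of cysl-2, sqrd-1 and cdo-1 were highest in replicate 3 of each group, which carry consecutive library numbers in the labels (22 and 21). What those libraries share beyond their numbers is not given in the sources used here.

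Compared with each other per exonic length, the members ran from 128 CPM per kb for cth-2 to 0.125 CPM per kb for cbs-2 as means over the 6 libraries. The gene cth-2 was the highest, at 115, 125 and 145 CPM per kb as the lowest, median and highest of the 6 libraries, above 92.9% of the 13281 tested genes with a known length. Next came cysl-2 and cth-1, whose ranges overlapped. With T25B9.1 RNAi cth-1 was above cysl-2 in all 3 libraries, at means of 64.9 ± 3.43 against 51.3 ± 7.94 CPM per kb. In replicate 3 of that group they were nearly level, at 61.1 CPM per kb for cth-1 and 60.5 CPM per kb for cysl-2. With L4440 cth-1 was below in all 3, at means of 48.5 ± 2.31 against 69.6 ± 15.7 CPM per kb (SD, n = 3 each). Since these members had the largest fitted differences in each direction, the change of order is a description with no test. The genes cysl-3 (mean of the 6 libraries 28.6 CPM per kb) and cdo-1 (25.2 CPM per kb) followed with overlapping ranges. Then came ethe-1 (11.3 CPM per kb), cysl-1 (10.2 CPM per kb) and cbs-1 (10.1 CPM per kb), which overlapped as neighbours and lay near the middle of all tested genes. The gene sqrd-1 was below these in every library, at 6.13 CPM per kb, and cbs-2 was far below the rest. The transcripts of the lyase pair were thus more plentiful than those of the synthase cbs-1, with cth-2 at 9.80, 10.5 and 15.1 times the cbs-1 level per length in the T25B9.1 RNAi libraries and 14.5, 11.1 and 16.9 times in the L4440 libraries.

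**Figure D4:**
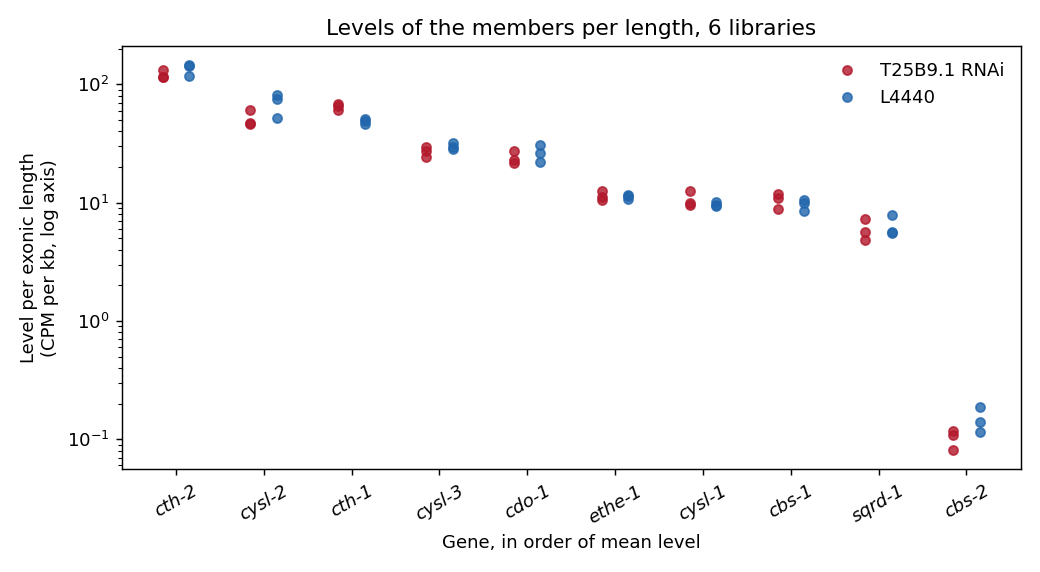
Level per exonic length (CPM per kb, log axis) of the 10 members in order of their mean over 6 libraries, with T25B9.1 RNAi libraries in red left of the L4440 libraries in blue. The gene cth-2 lies at 115 to 145 CPM per kb and cbs-2 at 0.0809 to 0.187 CPM per kb. The means of cth-1 and cysl-2 change places between the groups, though the 2 genes are nearly level in T25B9.1 RNAi replicate 3.

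The pathways around the members were described by 5 lists, none of which held a gene that passed an adjusted or unadjusted p under 0.05 in edgeR's quasi-likelihood test. In the methionine cycle, which supplies homocysteine, 6 of 11 tested genes were above 0 (median log2 fold change 0.011). The S-adenosylmethionine synthase gene sams-1 had 157, 101 and 95.8 CPM with T25B9.1 RNAi, where replicate 1 stood apart, and 98.6, 98.3 and 97.1 CPM with L4440. Its paralog sams-4 was at 69.8 ± 3.37 CPM with T25B9.1 RNAi and 76.5 ± 5.68 CPM with L4440 (SD, n = 3 each). The most abundant gene of the list per length, ahcy-1, for the enzyme that releases homocysteine, was at 1371 ± 124 CPM with T25B9.1 RNAi and 1390 ± 144 CPM with L4440. The gene mel-32, for the serine hydroxymethyltransferase that links serine to glycine, was at 472 ± 36.6 CPM with T25B9.1 RNAi and 490 ± 33.6 CPM with L4440.

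Of the 8 genes of sulfide and hypoxia signalling, 5 were above 0 (median 0.047). The factor gene hif-1 was at 130 ± 12.9 CPM with T25B9.1 RNAi and 125 ± 9.28 CPM with L4440, and egl-9, for the hydroxylase that marks HIF-1 for removal, was at 35.2 ± 1.21 CPM with T25B9.1 RNAi and 34.0 ± 2.25 CPM with L4440. The gene rhy-1, a target and inhibitor of HIF-1, had 18.6, 17.9 and 23.2 CPM with T25B9.1 RNAi and 19.3, 16.5 and 26.1 CPM with L4440, with groups that overlapped. The HIF-1 target gene nhr-57, for a nuclear receptor, was at 3.998 ± 0.462 CPM with T25B9.1 RNAi and 4.38 ± 0.959 CPM with L4440. The genes hif-1, egl-9, rhy-1, nhr-57 and mel-32 were named after their values were seen, for the steps they stand for. By the rule, phy-2, a subunit gene of the collagen-modifying prolyl hydroxylase, was at 17.1 ± 2.36 CPM with T25B9.1 RNAi and 15.5 ± 1.41 CPM with L4440, and skn-1, for a factor of the oxidative stress response, was at 313 ± 11.1 CPM with T25B9.1 RNAi and 296 ± 20.2 CPM with L4440.

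Among other genes of sulfur oxidation and transfer, 5 were tested, 2 were above 0 and the median was -0.029. The sulfurtransferase gene mpst-1 was at 39.2 ± 3.02 CPM with T25B9.1 RNAi and 39.2 ± 1.82 CPM with L4440, mpst-7 was at 2.66 ± 0.763 CPM with T25B9.1 RNAi and 2.23 ± 0.167 CPM with L4440, and semo-1, for methanethiol oxidase, was at 19.7 ± 0.597 CPM with T25B9.1 RNAi and 21.1 ± 2.09 CPM with L4440. Their relatives mpst-4 and mpst-6 had 0 counts in all 6 libraries. Of 6 molybdenum cofactor genes, which equip sulfite oxidase for its work, 3 were above 0 (median -0.0088), with moc-3 at 35.0 ± 0.755 CPM under T25B9.1 RNAi and 35.5 ± 2.30 CPM under L4440. In the same list moc-1 was at 17.8 ± 0.822 CPM with T25B9.1 RNAi and 17.3 ± 0.580 CPM with L4440, and mocs-1 at 4.85 ± 0.471 CPM with T25B9.1 RNAi and 4.63 ± 0.383 CPM with L4440.

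Of 8 genes that use or carry cysteine, including those of glutathione, 1 was above 0 and 7 were below, with a median of -0.064. Over all genes tested 50.6% were above 0, with a median of 0.0024. The smallest unadjusted p of the list was 0.186 (gss-1, edgeR's quasi-likelihood test), and the direction of the list as a whole was not tested. The glutathione synthetase gene gss-1 was at 81.4 ± 5.45 CPM with T25B9.1 RNAi and 87.4 ± 3.45 CPM with L4440. The scaffold gene for iron-sulfur clusters, iscu-1, was at 54.5 ± 4.51 CPM with T25B9.1 RNAi and 58.7 ± 3.85 CPM with L4440, and the glutathione reductase gene gsr-1 was at 200.2 ± 22.6 CPM with T25B9.1 RNAi and 216 ± 21.8 CPM with L4440. One gene of the list, ctns-1, for a lysosomal exporter of cystine, had groups that did not overlap, at 134, 144 and 146 CPM with T25B9.1 RNAi against 147, 152 and 148 CPM with L4440, as did 5.32% of all genes tested in that direction. Its log2 fold change was -0.075 (edgeR, unadjusted p = 0.267), and it was named after its values were seen.

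**Figure D5:**
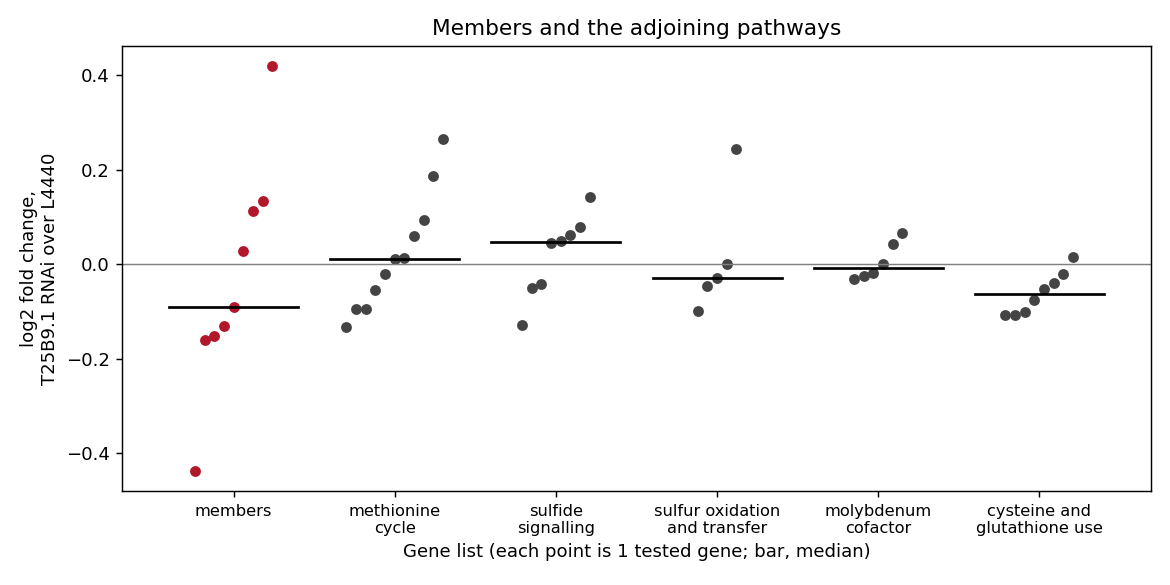
Log2 fold change of T25B9.1 RNAi over L4440 (y axis) for each tested gene of the members (red) and of the 5 surrounding pathway lists (grey), sorted within a list, with bars at the medians. The listed pathway genes run from -0.13 (sams-4) to 0.26 (sams-1), and the members cth-1 (0.42), cysl-2 (-0.44), cth-2 (-0.16) and cysl-3 (-0.15) lie outside that range.

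The genes closest to cth-1 and cysl-2 in their profile over the 6 libraries were sought among 7178 other genes of at least 10 CPM on average, by the root mean square distance of log2 CPM after centring each gene on its mean. For cth-1 they were ugt-63, a UDP-glucuronosyltransferase gene, at a distance of 0.0865, eat-16, a regulator of G protein signalling (0.0886), and mdl-1, for a Mad-like transcription factor (0.0922). The levels of ugt-63 were 15.9, 15.1 and 16.3 CPM with T25B9.1 RNAi, against 11.5, 10.5 and 11.5 CPM with L4440. For cysl-2 they were gst-4, a glutathione S-transferase gene of the oxidative stress response, at a distance of 0.0559, the collagen gene col-137 (0.0759) and the saposin-like gene spp-17 (0.0773). The levels of gst-4 were 14.5, 13.4 and 19.8 CPM with T25B9.1 RNAi, against 22.5, 15.7 and 25.7 CPM with L4440, the same order of libraries within each group as for cysl-2. The shared order is no separate finding, since gst-4 was picked for its closeness to cysl-2 in the same libraries. These likenesses rest on 6 libraries and are descriptions.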

How the data were processed

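Gene counts of 6 libraries were analysed as the authors deposited them. The submitters' processing notes name the build WBcel235 and the tools featureCounts 1.4.6-p4, STAR 2.4.1d and bcl2fastq 1.8.4, with options and annotation release not given in the sources used here. Libraries came from total RNA with a TruSeq v2 kit, per the labels' protocols. Strand is not kept by this kit. A second table that the authors deposited, named RPKM, was taken as a score and no level or test rests on it: between libraries its cth-1 values implied a gene length of 1190 to 1732 bases. The 5-day time named in the series title was not analysed here.

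Counts were filtered with filterByExpr (13374 genes kept), scaled by TMM and tested across all genes with edgeR 4.0.16 (glmQLFit and glmQLFTest in R 4.3.3). The tests were 2-sided, p-values were adjusted over all genes by Benjamini-Hochberg, and 0.05 was the threshold. The SE is the log2 fold change divided by the square root of F. CPM use TMM-scaled totals, and CPM per kb use exonic bases of Ensembl release 115 on the same build. Groups follow the perturbation label, and replicate numbers follow accession order. The fit was also run on simulated counts, drawn independently for each library and with no library set apart, unlike these data. Its outcome is not quoted here, and such a run cannot show how the p-values behave in these libraries. DESeq2 1.42.0, limma-voom (limma 3.58.1) and the settings listed at the end were alternatives.

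The members and lists were chosen with earlier results of these data known. Besides the members, named genes were the knocked-down gene, genes beside cth-1 or sharing exons with a member, the 2 of lowest p and the most abundant of each list, and the 3 nearest profiles of 2 members. The listed names sqrd-2, mpst-5 and moc-4 were not matched. Deviations of libraries with consecutive label numbers (14 and 13, 18 and 17, 22 and 21) from their group means correlated at 0.218, 0.413 and 0.271 over genes. The labels do not say that such numbers share anything.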

Additional observations from a re-analysis of the deposited data

How the results depend on the processing

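The members' results were recomputed under 16 alternatives. In place of 0 genes, 1 gene was called with RLE factors, 14 with DESeq2, 12 with the likelihood ratio test of edgeR, 139 without the filter on low counts and 1 with a correction for exonic length, chosen after seeing the data. In place of 0 members, 1 was called with DESeq2 and 1 with the likelihood ratio test (cth-1 each time), and 2 without the filter (cth-1 and cysl-2). Upper quartile factors, library totals only, limma-voom, the stricter filter (1 CPM and 10 counts in 3 libraries) and the block of consecutive library numbers called 0 genes. With 1 library left out, 0 to 1 genes (the 1 without T25B9.1 RNAi replicate 1) and 0 members were called. The log2 fold change of cth-1 ran from 0.37 to 0.46 over the 16 alternatives, with an adjusted p from 0.00232 to 0.971, and that of cysl-2 from -0.60 to -0.31, with an adjusted p from 0.0368 to 0.9999. With 1 library left out, sqrd-1 ran from -0.27 to 0.087 and ethe-1 from -0.044 to 0.058, so both changed sign, and the cause was not tested. The other 5 tested members kept their sign under each alternative. The groups share no replicate numbers in the labels, and each library correlated best with the one of consecutive number, a hint from the data and not from the design. The block of consecutive numbers gave cysl-2 an unadjusted p = 0.00244 (adjusted p = 0.334) and cth-1 an adjusted p = 0.214, with 1457 genes at an unadjusted p under 0.05 in place of 826. Without the filter there were 1582 such genes, and leaving out T25B9.1 RNAi replicate 1 left 313, L4440 replicate 1 left 404 and T25B9.1 RNAi replicate 2 gave 1398. Among the members cth-1 had such a p in each leave-out, while cysl-2 lost it without T25B9.1 RNAi replicate 1 or 2 and without L4440 replicate 1 or 3. In its place cysl-3 had an unadjusted p = 0.0488 in edgeR without T25B9.1 RNAi replicate 2, and cth-2 joined with an unadjusted p = 0.0206 without L4440 replicate 2. Within the 3 pairs of consecutive numbers, 6 of the 9 members had 1 sign throughout, cth-1, cbs-1 and cysl-1 higher and cth-2, cysl-2 and cysl-3 lower with T25B9.1 RNAi, as did 37.1% of all genes tested. Depth limits cbs-2, with 6 to 12 counts per library.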
